A study of Prunus dulcis and Prunus persica with 12 samples.

Results

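The region described here comprised 230 consecutive gene models of almond (Prunus dulcis) cv. Texas, numbered TexasF0_G27847 to TexasF0_G28082, out of 29183 gene models of the P0 phase with read counts. The range holds 236 numbers, 6 of which have no row in the count table. The gene models were chosen by number, with their low counts and their lack of allele counts already known, so both properties define the region and are described below without a test. None of the 230 was among the 6182 gene models with allele counts. Other runs of consecutive gene models also lacked allele counts, the longest with 348 models (TexasF0_G1903 to TexasF0_G2257). The region came next in length, followed by a run of 207 models (TexasF0_G18832 to TexasF0_G19042).

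The counts came from 3 libraries of flowers at the pink stage and 3 libraries of immature fruits, all from cv. Texas trees grown in the field with normal watering and described in the series as biological replicates. How many trees were sampled was not given in the sources used here. Each library held the RNA of a whole organ, so fewer cells of a type and less RNA per cell cannot be told apart. Library totals ranged from 49635915 to 54926220 counts in flower and from 40130120 to 46999320 in fruit. TMM factors, which adjust for the composition of a library, were 0.812 to 0.879 in flower and 1.11 to 1.29 in fruit.

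Texas is a heterozygous cultivar whose genome was assembled as a pair of phases, P0 and P1. In the paper the haplotigs, the contigs of the alternative phase, span only part of the assembled length. Whether they cover the region was not examined here. The authors assigned reads to a phase only at coding single-base differences (SNPs) without an indel within 50 bp. A gene model can therefore be transcribed, or differ between the phases, and still have no allele counts. The paper also counts, among the genes with such SNPs, 6182 whose expression was detectable in leaf, flower or immature fruit. Of the 5000 other gene models without a count in the 6 libraries, 4950 had no allele counts. Silence and a lack of allele counts are therefore not separate properties. Plant chromosomes also contain stretches rich in transposable elements and poor in genes, usually around the centromeres, in which many annotated gene models are transcribed weakly or not at all. Neither SNP density nor transposon content of the region was measured here. The identifiers matched no entry of the table of gene names that was used (0 of 230), so the gene models are given by identifier without a function, and no sequence is shown. Markers of flower and fruit could not be looked up by name for the same reason.

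The place of the region on the chromosome was read from gene model aliases that carry a chromosome and an index. TexasF0_G27846, the last gene model before the region, is on chromosome 8 with index 8. The nearest alias after the region, that of TexasF0_G28121, is on chromosome 8 with index 13. Between these points lie 268 gene models. From the first alias with index 8 to the first with index 13 there were 417 gene models, or 83.4 per index step. The other 21 steps of chromosome 8, each counted singly, held a median of 108 gene models, with a range of 34 to 193. The 83.4 is a mean over 5 steps, so the range of single steps is not a like measure for it. The 268 gene models between the aliases were, as a mean over 5 steps, 53.6 per step. This mean would be 44.7 with more steps assumed and 67.0 with fewer. These bounds are not a range of single steps, since no alias lies between the points. The unit of the index was not given, so these values are counts of gene models per step and not densities per base.

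Most gene models of the region had few or no reads. No count was recorded in any of the 6 libraries for 102 of the 230 (44.3%), against 5000 of the 28953 other gene models (17.3%) and 17.5% of all gene models. Among the other gene models without allele counts the share was 21.7% (4950 of 22771). A further 32 (13.9%) had between 1 and 9 counts summed over the 6 libraries, against 7.05% of the others. The median of the summed count was 2 in the region and 1478 elsewhere. A count of 0 allows up to 3 counts in a library, which corresponds to 0.0548 to 0.0745 CPM, a count scaled to a common TMM-adjusted library size. This limit covers counting error only.

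Not all of the region was silent. At least 10 counts in each of the 6 libraries were found for 57 gene models (24.8%), against 59.7% of the others. The median over these 57 was 30.7 CPM, and over the 17286 others with such counts it was 21.0 CPM. Counts were not divided by transcript length, so this compares reads and not RNA levels per length. None of the 57 had allele counts, whereas 29.5% of the 17286 others did. Another 5 gene models were restricted to flower, with at least 10 counts in each flower library and at most 3 in each fruit library, and none was restricted to fruit. Restriction here is between flower and fruit only, since leaf was not used. The remaining 34 (14.8%) had 10 or more counts in sum without meeting either rule.

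**Figure D1:**
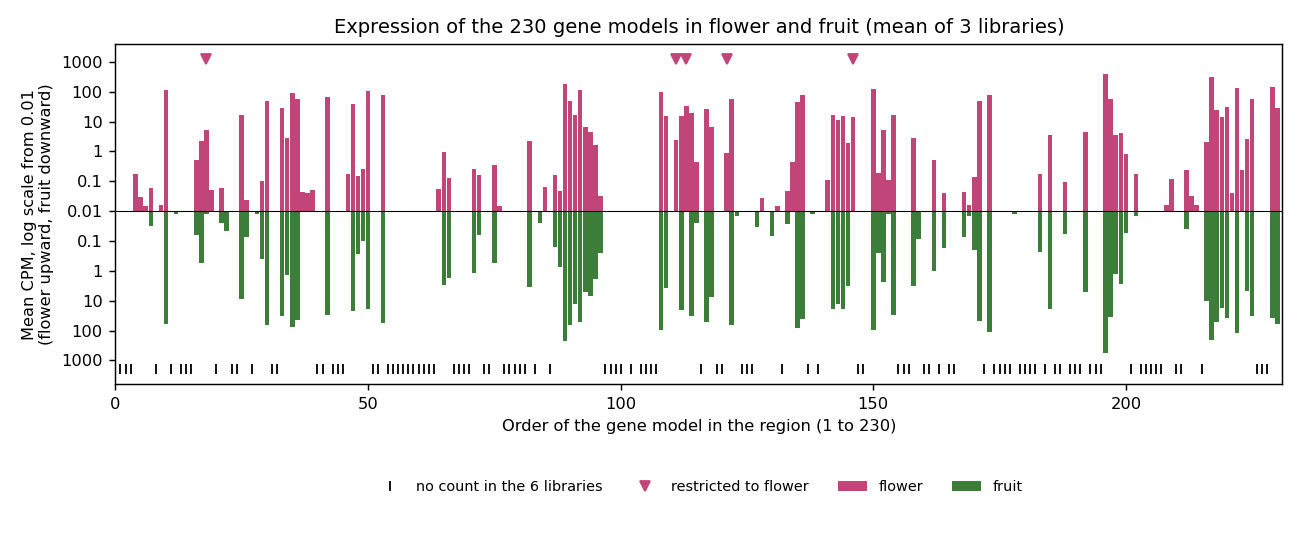
Mean CPM over 3 libraries (log scale from 0.01, TMM-scaled) of each of the 230 gene models by its order in the region, with flower bars upward and fruit bars downward, ticks for the 102 with no count and triangles for the 5 restricted to flower. Both bars and ticks occur along the whole length of the region, with the longest run of ticks covering 10 gene models and the longest run expressed in every library 7.

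Silent gene models were found in every part of the region. They formed 43 runs, of which the longest had 10 gene models (TexasF0_G27902 to TexasF0_G27911), and 64 of the 102 were in runs of 3 or more. The 57 expressed gene models formed 33 runs. The longest of these had 7 (TexasF0_G27937 to TexasF0_G27943), the next 5 (TexasF0_G28068 to TexasF0_G28072), and 24 of the 57 were in runs of 3 or more. In 5 successive windows of 46 gene models the silent share was 41.3%, 54.3%, 37.0%, 45.7% and 43.5%.

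The silent share of the flanks lay between those of the region and of all gene models. Of the 230 gene models just before it 78 (33.9%) were silent, and of the 230 just after it 70 (30.4%). At least 10 counts in every library were found for 77 (33.5%) and 89 (38.7%) of them, and 28 and 35 had allele counts. Window by window, the silent share was 28.3% to 41.3% before the region, and after it 6 to 23 of 46 gene models were silent. The window from TexasF0_G27750 to TexasF0_G27799, before the region, also had 0 gene models with allele counts, and 41.3% of it was silent.

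**Figure D2:**
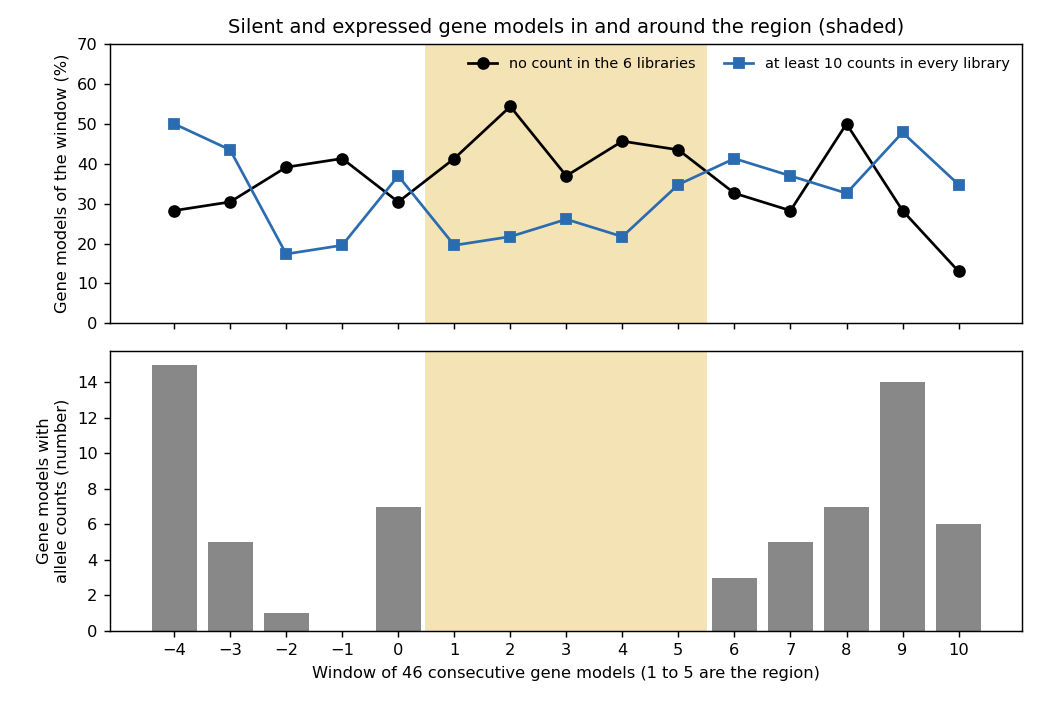
Upper panel, percent of gene models in windows of 46 with no count in the 6 libraries (circles) and with at least 10 counts in every library (squares), and lower panel, number with allele counts, along the shaded region and the 230 gene models on each side. Between 17 and 25 of 46 gene models were silent in the windows inside the region, and between 6 and 23 in the flanking windows.

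At the first edge, TexasF0_G27846 had 1827, 1580 and 1349 counts in the flower libraries and 3740, 3397 and 3721 in the fruit libraries, and it has allele counts. The first 3 gene models inside, TexasF0_G27847 to TexasF0_G27849, had none in any library. TexasF0_G27850 had 4, 6 and 12 counts in flower and 0 in each fruit library. At the other edge both of the last gene models inside were expressed. TexasF0_G28081 had 5747, 7826 and 6081 counts in flower and 1612, 1539 and 2657 in fruit. TexasF0_G28083, the first gene model after the region, had 9458, 11257 and 12178 counts in flower and 4495, 4031 and 4091 in fruit, with allele counts. The edges thus follow the allele table, and expressed gene models stand on both sides of the second edge.

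The other long runs without allele counts were not alike in expression. In the run from TexasF0_G1903, 74 of 348 gene models (21.3%) were silent and 53.7% had at least 10 counts in every library. In the run from TexasF0_G18832, 14 of 207 (6.76%) were silent and 77.8% had such counts. The region therefore had the largest silent share of these 3 runs, and it was picked for it.

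Reads of the region were concentrated in few gene models. TexasF0_G28048 held 17.2% of them, the first 5 held 41.0%, the first 10 held 56.6% and the 57 expressed gene models together held 98.8%. In all, the region took 0.245%, 0.266% and 0.246% of the counts in the flower libraries and 0.278%, 0.270% and 0.424% in the fruit libraries. The flower mean was 0.253% ± 0.0117 and the fruit mean 0.324% ± 0.0867 (n = 3, SD). The fruit libraries were all above the flower libraries, with the third fruit library far above the others (two-sided exact permutation p = 0.1, the smallest value that 3 against 3 allows). On the TMM-scaled library size the order of the means, though not of every library, was the opposite. They were 0.299% ± 0.00708 in flower and 0.274% ± 0.0788 in fruit (exact permutation p = 0.7), so no direction can be given.

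**Figure D3:**
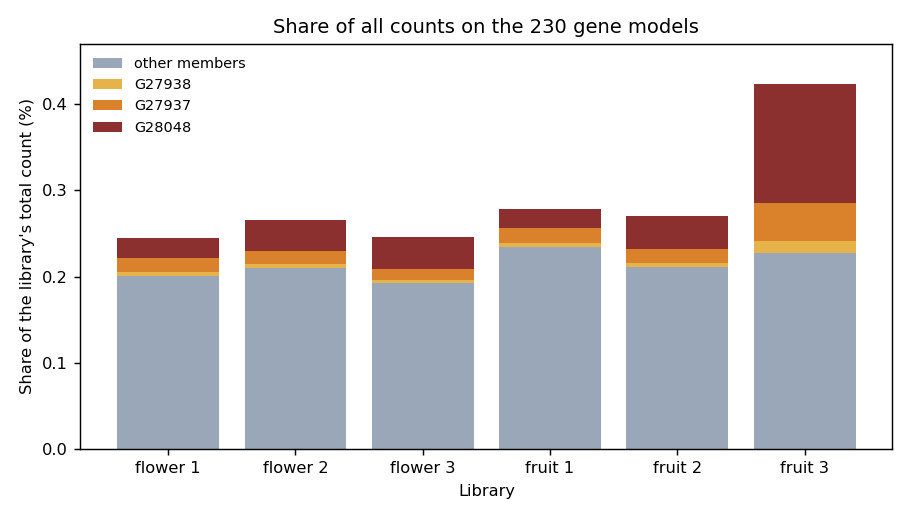
Percent of each library's counts on the region, stacked by TexasF0_G28048, TexasF0_G27937, TexasF0_G27938 and all other members. The first of these took 0.139% of the counts in the third fruit library and 0.0218% to 0.0378% in the other 5 libraries.

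More gene models of the region were detected in flower than in fruit. At least 10 counts were recorded for 73, 70 and 72 of them in the flower libraries and for 66, 62 and 69 in the fruit libraries. The groups did not overlap, with 71.7 ± 1.53 in flower and 65.7 ± 3.51 in fruit (SD, n = 3, two-sided exact permutation p = 0.1, the smallest possible). Elsewhere in the genome the flower libraries also had more gene models detected, 19659 ± 99.2 against 18787 ± 265. With 1 count as the limit, the region had 101, 99 and 104 gene models in flower and 94, 84 and 87 in fruit. The flower libraries had the larger totals, for which these limits do not scale. With at least 0.2 CPM as the limit, there were 73, 70 and 75 in flower and 66, 62 and 66 in fruit. Reads in flower libraries only were found for 26 gene models (11.3%, against 6.31% of the others), and reads in fruit libraries only for 11 (4.78%, against 2.72%). These include gene models with a single count, which can fall in only 1 organ, so the shares do not measure restriction. Under the rule for restriction to flower, which asks for at least 10 counts, the share was 2.17% against 2.22% of the others.

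Of the 230 gene models, 70 had enough counts for the comparison of flower with fruit, and 160 did not, among them 58 with some counts. In the quasi-likelihood fit of edgeR, with p-values adjusted (Benjamini-Hochberg) over all 19917 gene models tested, 23 were higher in flower (background 27.6%), 13 were higher in fruit (background 28.0%) and 34 were not called. These are 32.9% and 18.6% of the 70, while 55.6% of all tested gene models were called in either direction. Among the 57 gene models expressed in every library, 16 were called for flower and 10 for fruit. The calls among all gene models expressed in every library were not counted, so these numbers have no background. The median log2 fold change of flower over fruit was -0.18 over the 70 and -0.06 over all tested gene models, both slightly towards fruit. The mean over the 70 was positive, at 0.46 with the 4 gene models without a fruit count set at their lower bounds, so median and mean differ in sign. The mean of the fitted values over all tested gene models, without such bounds, was 0.40 and is not on the same footing.

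**Figure D4:**
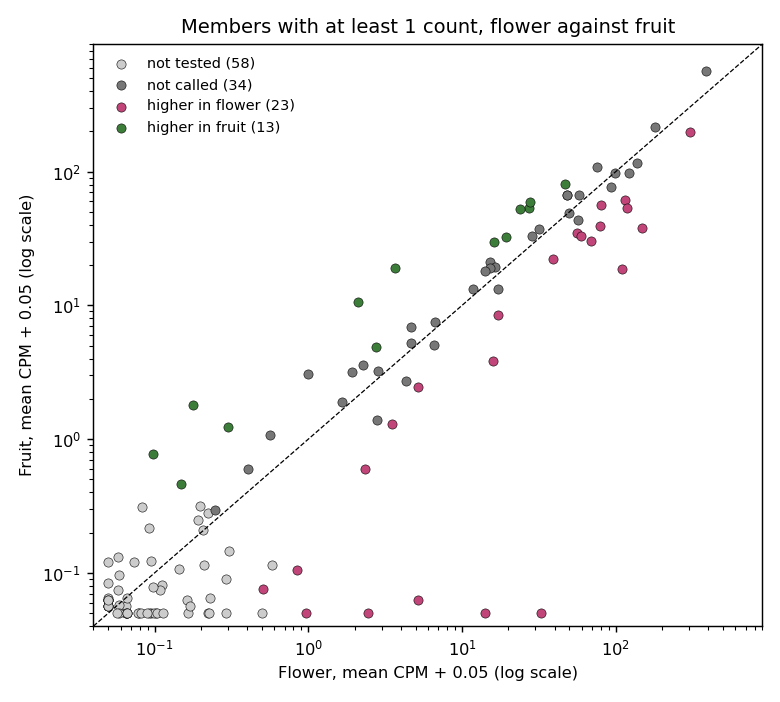
Mean CPM in fruit (vertical axis) against flower (horizontal axis, both log scales with 0.05 CPM added) of the 128 gene models with a count, coloured by edgeR call, with a dashed line of equal values. The 23 called higher in flower include the 5 restricted to flower along the lower edge, and none of the 13 called higher in fruit is restricted to that organ.

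The 5 gene models restricted to flower are 2.17% of the region, against 2.22% of all gene models, so the share was close to the background. TexasF0_G27962 had 1576, 1234 and 1482 counts in the flower libraries and 0 in each fruit library, which makes it at least 547-fold higher in flower when each fruit library is set to 3 counts (edgeR adjusted p = 1.2e-05). TexasF0_G27996 had 701, 539 and 611 counts in flower and 0 in fruit, at least 236-fold (adjusted p = 2e-05). Both were thus well expressed in every flower library and without a read in fruit.

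TexasF0_G27960, close to TexasF0_G27962 in the numbering, had 93, 67 and 147 counts in flower and 0 in fruit, at least 39.8-fold (edgeR adjusted p = 0.000488). In TexasF0_G27971 the values were 41, 41 and 39 counts in flower and 0 in fruit, at least 15.3-fold (adjusted p = 0.00064). TexasF0_G27864 had 257, 151 and 260 counts in flower and 2, 0 and 0 in fruit, a ratio of 382 (exact 95% interval 105 to 3161, counting error only, adjusted p = 9.2e-05). Restriction to fruit, which was found for 0.233% of all gene models, was found for none of the region.

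Other gene models were higher in flower with reads in fruit as well. TexasF0_G27898 had 5883, 4688 and 3939 counts in flower and 893, 1390 and 435 in fruit, or 110 ± 21.5 against 18.8 ± 11.7 CPM (SD, n = 3), a log2 fold change of 2.55 (SE 0.45, edgeR adjusted p = 0.00219). TexasF0_G27958 had 598, 796 and 708 counts in flower and 192, 226 and 140 in fruit, a log2 fold change of 2.08 (SE 0.28, adjusted p = 0.000563). TexasF0_G27863, the neighbour of TexasF0_G27864, had 90, 94 and 116 counts in flower and 34, 23 and 26 in fruit, with a log2 fold change of 2.06 (SE 0.37, adjusted p = 0.00217). In these 3 gene models every flower library was above every fruit library in CPM.

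At lower counts, TexasF0_G28052 had 29, 43 and 33 counts in flower and 1, 0 and 8 in fruit (log2 fold change 3.72, SE 0.92, edgeR adjusted p = 0.00998). TexasF0_G27965 had 29, 19 and 13 counts in flower and 4, 0 and 0 in fruit (log2 fold change 4.0, SE 1.05, adjusted p = 0.013). Without the third fruit library the log2 fold change of TexasF0_G28052 was 5.93 (adjusted p = 0.000902). The call of TexasF0_G27965 was lost without the first flower library (adjusted p = 0.0524), and the first fruit library held all of its fruit counts. Without that fruit library, and so with no fruit count left, its log2 fold change was 7.42 (edgeR adjusted p = 0.00549).

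Among the gene models higher in fruit, those with the largest changes had few counts. TexasF0_G27936 had 0, 2 and 4 counts in flower and 37, 49 and 20 in fruit (log2 fold change -3.90, SE 0.91, edgeR adjusted p = 0.00768). TexasF0_G27914 had 0, 4 and 12 counts in flower and 73, 107 and 77 in fruit (log2 fold change -3.78, SE 0.92, adjusted p = 0.0096). Both had some reads in 2 of the 3 flower libraries, and without the third flower library the log2 fold changes were -4.91 and -5.26, both still called.

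TexasF0_G28068 had 72, 104 and 96 counts in flower and 676, 550 and 338 in fruit, or 2.06 ± 0.376 against 10.5 ± 3.77 CPM (SD, n = 3, log2 fold change -2.35, SE 0.34, edgeR adjusted p = 0.000805). TexasF0_G27919 had 13, 10 and 10 counts in flower and 61, 58 and 58 in fruit (log2 fold change -2.22, SE 0.42, adjusted p = 0.00287). The groups were well apart in both. TexasF0_G27875 had 5, 4 and 4 counts in flower and 38, 14 and 10 in fruit (log2 fold change -2.03, SE 0.71, adjusted p = 0.0409), and its call was lost when any 1 of 5 of the 6 libraries was left out (edgeR adjusted p 0.0591 to 0.155), with a log2 fold change of -1.31 without the first fruit library.

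Further calls in fruit were of gene models with more counts and smaller changes. TexasF0_G28070 had 1035, 1047 and 1031 counts in flower and 2213, 2586 and 3099 in fruit (log2 fold change -1.15, SE 0.17, edgeR adjusted p = 0.000848). TexasF0_G28082, the last gene model of the region, had 1046, 1155 and 1419 counts in flower and 2535, 2691 and 3827 in fruit (log2 fold change -1.11, SE 0.21, adjusted p = 0.00321). TexasF0_G27967 and TexasF0_G28005 followed with log2 fold changes of -0.98 (SE 0.26, adjusted p = 0.0137) and -0.88 (SE 0.18, adjusted p = 0.00412). The call of TexasF0_G27967 was lost without the first or the third flower library (adjusted p = 0.0506 and 0.0511).

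**Figure D5:**
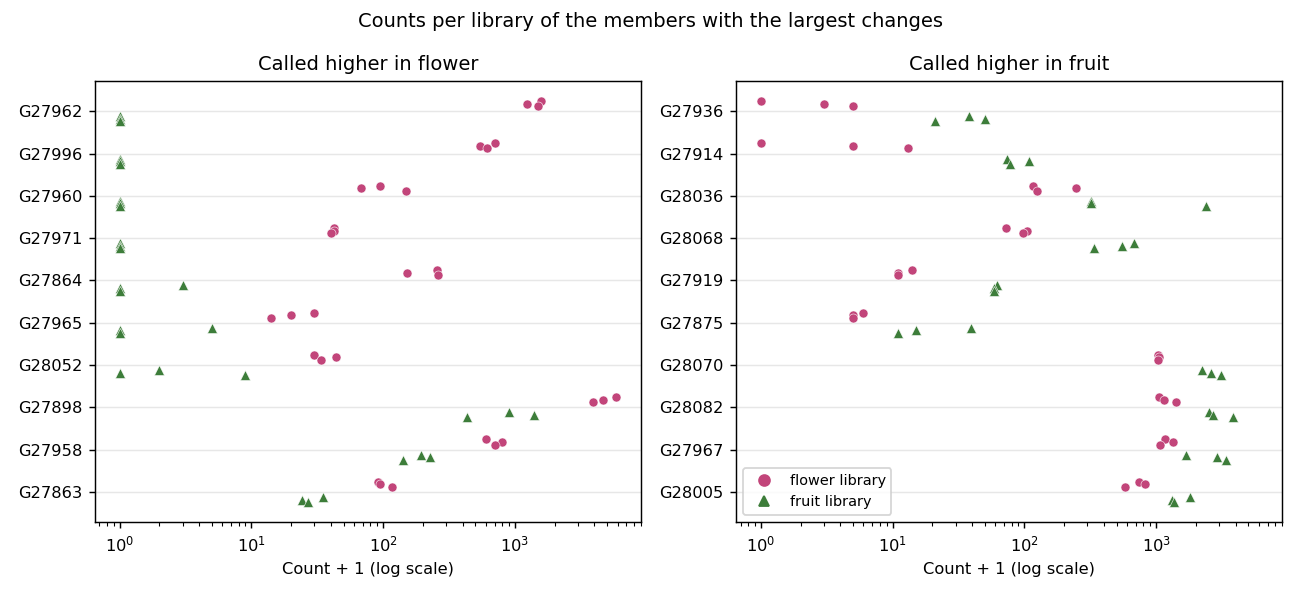
Counts plus 1 (log scale) in each flower and fruit library for the 10 gene models with the largest changes called in each direction. Flower points lie above 10 in the left panel while TexasF0_G27962, TexasF0_G27996, TexasF0_G27960 and TexasF0_G27971 have 0 counts in fruit, and TexasF0_G28036 has 1 fruit library at 2401 with the others at 318 and 319.

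Gene models next to each other were often called in opposite directions. In 9 pairs of neighbours in the table both were called, and in 7 of these (77.8%) one was higher in flower and the other in fruit, against 40.9% of 5219 such pairs among the other gene models. No test was made, since the pairs were noticed in these data, and the pairs are not separate, since TexasF0_G27964 and TexasF0_G28069 are each in 2 of them. The count of opposite pairs was 4 of 6 without the third flower library and 12 of 14 without the second fruit library. TexasF0_G28068, TexasF0_G28069 and TexasF0_G28070 alternated in this way. TexasF0_G28069 had 12660, 13942 and 13493 counts in flower and 9345, 9227 and 11542 in fruit, or 305 ± 26.4 against 199 ± 17.0 CPM (SD, n = 3, log2 fold change 0.61, SE 0.17, edgeR adjusted p = 0.0149, and 0.0724 without the third flower library). At the end of the region TexasF0_G28081 was higher in flower, with 148 ± 15.5 against 38.0 ± 9.27 CPM (log2 fold change 1.96, SE 0.21, adjusted p = 0.000161), next to TexasF0_G28082. Strand and distance of these neighbours were not analysed here.

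The longest expressed run, TexasF0_G27937 to TexasF0_G27943, had 1 gene model called. This was TexasF0_G27940, with 4979, 5678 and 4985 counts in flower and 2726, 2214 and 3186 in fruit, or 118 ± 4.95 against 53.5 ± 4.33 CPM (SD, n = 3, log2 fold change 1.15, SE 0.14, edgeR adjusted p = 0.000312). The other 6 were not called, with log2 fold changes between -0.57 and 0.40. In the run TexasF0_G27992 to TexasF0_G27995 none was called, with log2 fold changes between -0.74 and -0.16.

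Among the gene models with the most reads, one fruit library stood apart. TexasF0_G28048 had 12234, 19761 and 18625 counts in flower and 8818, 15166 and 65391 in fruit, the last being 3.51-fold above the next fruit library in CPM. The flower mean was 384 ± 93.8 CPM and the fruit mean 568 ± 549 (SD, n = 3, log2 fold change -0.57, edgeR adjusted p = 0.477), and without the third fruit library the log2 fold change was 0.59 (adjusted p = 0.165). TexasF0_G27937 had 8641, 8839 and 6386 counts in flower and 6865, 6434 and 20351 in fruit (log2 fold change -0.27, adjusted p = 0.589, and 0.38 without that library, adjusted p = 0.107). Neither gave a direction.

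In the third fruit library, 6 of the 57 gene models expressed in every library (10.5%) were more than 2-fold above both other fruit libraries in CPM, against 4.34% of the other gene models with such counts. They were TexasF0_G27923, TexasF0_G27937, TexasF0_G27938, TexasF0_G28036, TexasF0_G28044 and TexasF0_G28048. TexasF0_G28036 had 116, 245 and 124 counts in flower and 318, 319 and 2401 in fruit (log2 fold change -2.40, SE 0.77, edgeR adjusted p = 0.0297). Without the third fruit library its log2 fold change was -0.88 (adjusted p = 0.0448), and its call was lost when any flower library was left out (adjusted p 0.0556 to 0.0982). TexasF0_G27913, which was not called, had 51, 45 and 29 counts in flower and 4, 4 and 490 in fruit, and is named after its values were seen. What sets this library apart was not tested.

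Of the remaining gene models with the most reads, 1 was called and 4 were not. TexasF0_G27856 had 114 ± 18.3 CPM in flower and 61.7 ± 15.5 in fruit (SD, n = 3, log2 fold change 0.89, SE 0.23, edgeR adjusted p = 0.0112). TexasF0_G28074, TexasF0_G28000 and TexasF0_G27957 were not called, with log2 fold changes of 0.24 (adjusted p = 0.317), 0.34 (adjusted p = 0.132) and 0.01 (adjusted p = 0.973). TexasF0_G28024 had 75.4 ± 0.513 CPM in flower and 108 ± 43.0 in fruit (log2 fold change -0.52, adjusted p = 0.131), and it was called higher in fruit when the third fruit library was left out (log2 fold change -0.72, adjusted p = 0.0259).

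In the deposited regularized log values, which the authors made with DESeq2 on a log2 scale, 133 of the 230 gene models (57.8%) had a row, against 83.8% of the others. The 97 without a row were all without a count in the 6 libraries. Another 5 gene models without a count in these libraries did have a row. The median over the 133 was 3.48, 3.18 and 3.41 in the flower libraries and 2.24, 2.29 and 2.65 in the fruit libraries, with each flower library above each fruit library. Only 57 gene models of the region had at least 10 counts in every library, so these medians fall among gene models with few counts. They do not give a change in expression, and the median log2 fold change over the 70 tested was -0.18. Over the other gene models with a row it was 8.04 to 8.06 in flower and 8.09 to 8.10 in fruit.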

How the data were processed

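RNA-seq of cv. Texas flowers and immature fruits was analysed (6 libraries, 3 per organ, stranded paired-end mRNA libraries). The 6 peach libraries were not used. The deposited gene table holds estimated counts, which the authors obtained with RSEM and Bowtie2 on the almond transcript models and which are whole numbers in the file. The allele table holds counts that the authors made with HISAT2 and GATK's ASEReadCounter at coding SNPs between P0 and P1 (from minimap2 alignments) without an indel within 50 bp. It served only to tell which gene models have allele counts, and to place them by alias. The deposited regularized log values are on a log2 scale and were made by the authors with DESeq2. Tool versions of the authors were not given in the sources used here. In the tables used, 12 columns matched no sample of the series, among them those of leaf, and were not used. No genome or gene lengths were used. How RSEM divides reads between near-identical gene models can change single counts.

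Flower and fruit were compared with edgeR 4.0.16 in R 4.3.3 (quasi-likelihood F test, TMM, filterByExpr, organ as the only term) over the whole table, with Benjamini-Hochberg adjusted p under 0.05 as the call. Log2 fold changes are flower over fruit, and the SE is the absolute log2 fold change divided by the square root of F. Where an organ had 0 counts, a lower bound was computed with 3 counts in each of its libraries. Values of single libraries were compared by a two-sided exact permutation test (scipy 1.17.1). The scripts were tested on simulated data. The edgeR p-values weigh an organ difference against the spread between these libraries, which is estimated with information shared across gene models. The permutation p-values give the share of arrangements of the 6 libraries with a difference at least as large. Alternatives were upper-quartile factors, DESeq2 1.42.0, no filter, a replicate block, each library left out, and other limits for silent, restricted and detected.

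Gene models named are up to 10 per direction with the largest change among calls with at least 10 counts in every library of the higher organ, the 10 with the highest mean CPM, those restricted to 1 organ, those at the edges of the region, and a few said to be chosen after their values were seen. Members of runs, neighbour pairs and those high in the third fruit library were also chosen after their values were seen. The region and these rules were set with earlier results of these data known.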

Additional observations from a re-analysis of the deposited data

How the results depend on the processing

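The counts of calls in the region kept within 1.5 times their value. With upper-quartile factors, which shifted the median log2 fold change of all tested gene models by -0.15, 21 gene models were higher in flower and 16 in fruit. DESeq2 gave 30 and 12, and no filter on low counts gave 30 and 11. Leaving out 1 library gave 19 to 27 and 9 to 15. With the replicate number as a block there were 23 and 10 (edgeR), with all 23 flower calls shared and TexasF0_G27875, TexasF0_G28036 and TexasF0_G28076 lost in fruit. The correlations of deviations in same-numbered libraries were 0.0582, -0.2 and 0.131, and those in differently numbered ones were -0.253 to 0.196. Whether libraries with the same number share a tree cannot be told from these values.

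With at least 5 counts as the limit, 8 gene models were restricted to flower. Those restricted to fruit numbered 0 to 1 with 1 library left out, the 1 appearing without the third flower library. The difference of the share of counts (flower minus fruit, in percentage points) was reversed to 0.0247 with the TMM-scaled library size, and it was -0.0985 to -0.0214 with 1 library left out. Silent gene models numbered 120 with up to 3 summed counts and 134 with up to 9. Of the 30 named gene models in the test, over 10 alternatives each, 277 of 300 values kept direction and call, 16 lost the call (5 gene models), 1 gained it and 6 reversed (3 gene models, none called). The log2 fold change of TexasF0_G27957 was -0.14 with upper-quartile factors and -0.22 to 0.14 with 1 library left out, that of TexasF0_G28048 -1.0 to 0.59 and that of TexasF0_G27937 -0.52 to 0.38. The count of neighbour pairs called in opposite directions, an alternative chosen after seeing the data, was 6 to 9 under the other settings and 4 to 12 with 1 library left out. The cause was not tested.

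Depth limits the 102 silent gene models: a count of 0 allows up to 3 counts in a library, so very low transcription can have been missed. This limit is for each library by itself. Over the 6 libraries together it would be lower, and it was not computed. Low counts were recorded for 32 other gene models of the region, with sums of 1 to 9. With 3 libraries per organ no exact permutation test can go below 0.1. Levels were not compared per length.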
